A study of Mus musculus with 6 samples.

Results

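Histone genes were measured by 109 probes for 72 gene names on a mouse Illumina bead array that carries 45281 probes for 30854 names. The members were taken by name. The 89 probes whose names begin with HIST1H, HIST2H, HIST3H or HIST4H stand for 59 gene names and are called replication-dependent here, and the 20 probes beginning with H1F, H2AF or H3F stand for 13 gene names and are called variant. All 72 names matched a symbol or synonym in the RefSeq table of assembly GRCm38.p6. The array's own, older names are used (Hist1h1c is now H1f2, and H2afx is now H2ax). The RNA came from malignant epithelial cells of a pancreatic carcinoma that arose in a KPC-Brca1 mouse and was kept for a short time as an explant culture. The labels do not spell out the alleles of this mouse. Of the 6 plates, 3 received 0.5 µM DAC (decitabine, 5-aza-2'-deoxycytidine) for 48 h and 3 were left untreated, with no duration given for the untreated plates. DAC is a nucleoside that dividing cells build into DNA, where it captures DNA methyltransferases. The labels name replicate plates and no separate tumours, so the p-values below measure the spread between plates, which may be technical.

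Histones are the proteins that DNA is wound around. H2A, H2B, H3 and H4 form the core of the nucleosome, and H1 binds the linker DNA between nucleosomes. Replication-dependent histone genes lie in clusters, are transcribed mainly in S phase, lack introns and give mRNAs that end in a stem-loop in place of a poly(A) tail, although several also give polyadenylated mRNAs in slowly dividing or differentiated cells. Variant histones come from single genes that are expressed through the cell cycle as polyadenylated mRNAs, and H2afx is known for both kinds of mRNA end. Labelling that starts at poly(A) copies stem-loop mRNAs poorly. The labels name an Ambion MessageAmp kit, and how its reaction was primed is not given in the sources used here. Replication-dependent genes of one family are also nearly identical in sequence, so a probe may bind the mRNAs of several of them, and each of these probes is uncertain as a measure of its named gene alone.

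A probe counted as kept with a detection p-value under 0.05 on 3 or more of the 6 arrays. This kept 83 histone probes for 56 gene names, of 21415 probes kept in all. Of the replication-dependent probes, 68 of 89 were kept, and of the variant probes 15 of 20. The 2 kept replication-dependent H1 probes both belong to Hist1h1c; the probes of Hist1h1a, Hist1h1b, Hist1h1d, Hist1h1e and the testis gene Hist1h1t were detected on none of the 6 arrays. The kept probes of the other families numbered 22 of 24 for H2A, 16 of 20 for H2B, 13 of 18 for H3 and 15 of 20 for H4. In the variant class, 3 of 5 H1, 8 of 11 H2A and 4 of 4 H3 probes were kept. Of all 109 probes, 78 were detected on 6 arrays and 23 on none, and the other 3 that were not kept were detected on 1 or 2 arrays. No kept probe was undetected throughout a group.

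One array stands apart and bears on everything below. The mean intensity was 313.2 to 360.7 on the DAC arrays, and 460, 333.5 and 340.4 on untreated replicates 1, 2 and 3. The squared differences of untreated replicate 1 from untreated replicates 2 and 3 were 14.2 and 16.5 times those that bead noise alone would give. Between untreated replicates 2 and 3 this ratio was 1.73, and between pairs of DAC arrays it was 3.59 to 7.59. The counts and medians of the families are therefore given with all 6 arrays and also without untreated replicate 1. In the sentences on omitted arrays, plates are named by group and replicate number (DAC 2 is DAC replicate 2).

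With DAC, few histone probes passed the test, and they went both ways. The linker histone Hist1h1c fell on both of its probes, by 0.49 on the log2 scale each, and Hist2h2aa1 fell on 1 of its 3 probes by 0.52. H2afx, the H2A variant that is phosphorylated at DNA breaks, rose by 0.76 on the log2 scale, a 1.69-fold difference, and single probes of Hist1h2ac, Hist1h2be, Hist1h3a, Hist1h3f, Hist2h4 and H3f3b rose by 0.43 to 0.76. In bulk RNA, fewer cells of a kind and less RNA per cell cannot be told apart.

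Among the 68 replication-dependent probes, 5 were called higher and 3 lower at an adjusted p under 0.05 (limma with Benjamini-Hochberg adjustment over 21415 probes, n = 3 arrays each). That is 7.35% higher and 4.41% lower, beside 8.34% called higher and 6.62% called lower among all kept probes. Of the 15 variant probes, 2 were called higher and 0 lower, and 0 variant probes had a lower difference with an unadjusted p under 0.05. The calls cover 10 probes of 9 genes and are near the background share in number. The median log2 fold change was 0.22 over the replication-dependent probes and 0.07 over the variant probes, beside -0.05 over all kept probes. With arrays scaled to a common median in place of quantile normalization, the medians were 0.08 over the replication-dependent probes and -0.03 over the variant probes, beside -0.14 over all probes. With 1 array left out, the replication-dependent median lay between 0.14 (without untreated replicate 3) and 0.32 (without untreated replicate 1). Without untreated replicate 1, 24 replication-dependent probes (35.3%) were called higher and 3 lower, against a background of 14.3% higher and 15.5% lower in that fit. The count of 5 became 2 when DAC 1 was omitted and 0 when DAC 2, DAC 3, untreated 2 or untreated 3 was omitted. The count of 3 lower became 1 when DAC 1 was omitted, 0 when any of those 4 was omitted and stayed at 3 without untreated replicate 1. The variant count of 2 higher became 3, with 3 lower, without untreated replicate 1, and 1 when DAC 2, DAC 3, untreated 2 or untreated 3 was omitted. Among all kept probes, 1785 were called higher with 6 arrays and 994 to 3053 with 1 array left out.

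**Figure D1:**
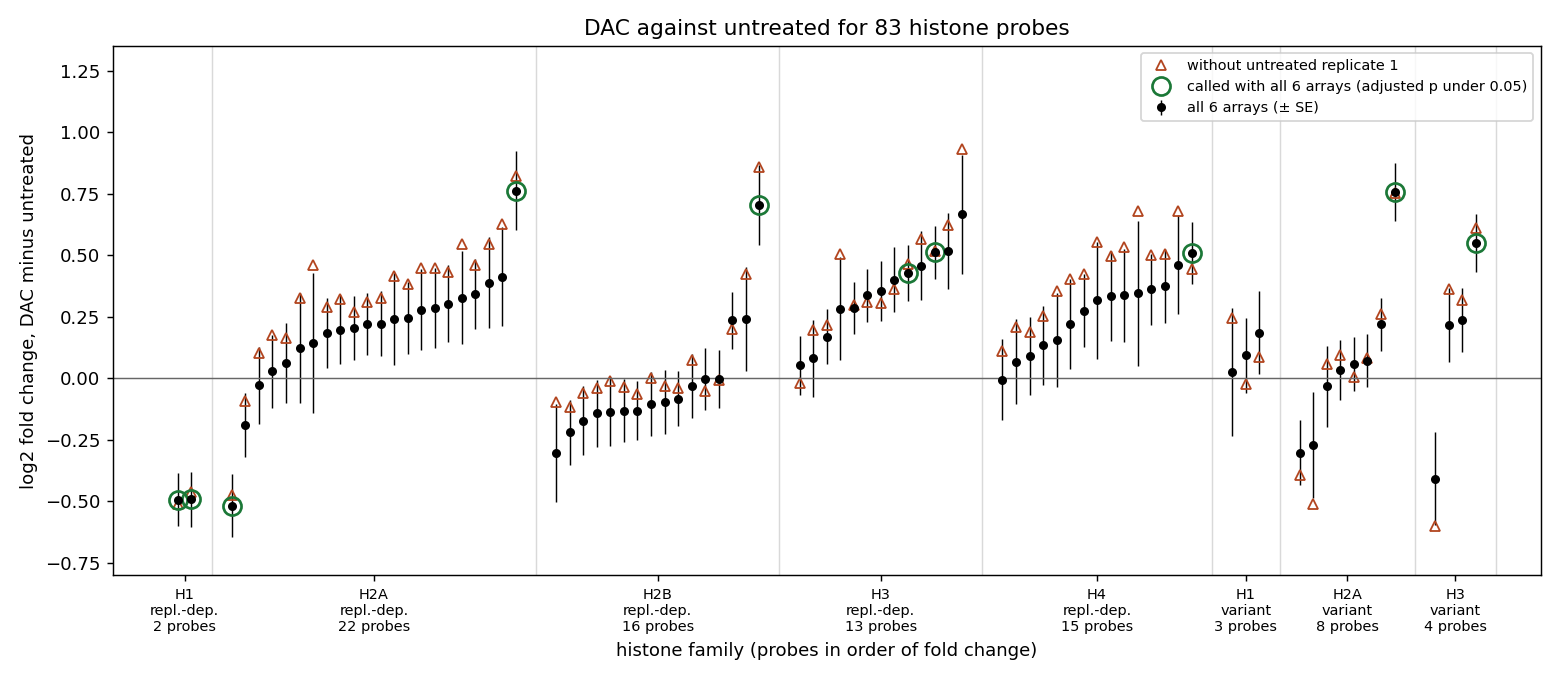
Log2 fold change, DAC minus untreated, of the 83 kept histone probes (vertical axis), grouped by family and ordered by size within a family (horizontal axis); black points are estimates from all 6 arrays with standard errors, triangles the estimates without untreated replicate 1, and green circles mark the 10 called probes. All 13 H3 points lie above 0 (12 of 13 without untreated replicate 1, 11 of 13 with median scaling), 13 of 16 H2B probes lie below 0, and most triangles of H2A and H4 lie above their points. Of all 21415 kept probes, 9468 were above 0 with 6 arrays.

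Promoters are shown for 4 members as examples. Hist1h1c is the called linker histone, and Hist1h2ac the called H2A gene of the largest change. Hist1h2bk, itself not called, has a promoter that also faces an H2A gene, and H3f3b is a called variant. Each run gives the 250 bases before the start site, 5' to 3' on the gene's own strand, from RefSeq with assembly GRCm38.p6. Capitals mark matches on either strand to 4 short motifs. The first is CCAAT itself. Another is the TATA box, searched as TATAAA. The others are the octamer known from H2B promoters, searched as ATTTGCAT, and the H1 box of linker histone promoters, searched as AAACACA. Matches to different motifs may overlap. Hist1h1c is at chr13:23738557-23738806 on the plus strand, Hist1h2ac at chr13:23683960-23684209 on the minus strand, Hist1h2bk at chr13:22035571-22035820 on the plus strand and H3f3b at chr11:116024505-116024754 on the minus strand.
Hist1h1c: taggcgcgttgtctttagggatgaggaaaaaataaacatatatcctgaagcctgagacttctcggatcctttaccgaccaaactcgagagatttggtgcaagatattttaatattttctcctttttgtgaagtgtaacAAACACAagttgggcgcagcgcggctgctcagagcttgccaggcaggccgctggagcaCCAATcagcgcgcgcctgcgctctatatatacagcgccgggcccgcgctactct
Hist1h2ac: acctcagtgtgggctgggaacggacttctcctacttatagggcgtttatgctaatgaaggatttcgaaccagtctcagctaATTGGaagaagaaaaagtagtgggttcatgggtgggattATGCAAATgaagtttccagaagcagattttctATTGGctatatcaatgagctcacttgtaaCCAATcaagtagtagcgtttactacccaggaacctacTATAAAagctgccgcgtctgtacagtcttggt
Hist1h2bk: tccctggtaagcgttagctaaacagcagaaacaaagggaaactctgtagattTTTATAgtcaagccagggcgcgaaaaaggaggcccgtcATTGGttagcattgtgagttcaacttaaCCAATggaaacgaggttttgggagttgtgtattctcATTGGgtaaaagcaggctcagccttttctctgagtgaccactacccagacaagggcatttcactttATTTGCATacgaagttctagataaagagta
H3f3b: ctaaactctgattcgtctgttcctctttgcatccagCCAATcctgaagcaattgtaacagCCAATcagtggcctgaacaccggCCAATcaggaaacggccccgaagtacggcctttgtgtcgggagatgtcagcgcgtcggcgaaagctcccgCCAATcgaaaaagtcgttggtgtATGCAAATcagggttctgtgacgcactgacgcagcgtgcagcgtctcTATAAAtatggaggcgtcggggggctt
The Hist1h1c run holds 1 CCAAT and 1 H1 box. Hist1h2ac and Hist1h2bk each hold 3 CCAAT, 1 TATAAA and 1 octamer. In Hist1h2bk the TATAAA match is on the opposite strand (TTTATA) and far from the gene's start, so it is a match in letters alone. The variant H3f3b holds 4 CCAAT, 1 TATAAA and 1 octamer, the same 3 motifs as in Hist1h2ac. Among the 11 variant windows counted below, TATAAA was in 1 and the octamer in 1, in both cases that of H3f3b.

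Promoter windows of 300 bases, from 250 before to 50 after the start, were in the table for 64 of the 72 names, with a pair of windows for Hist1h2be. None was there for the called genes H2afx, Hist1h3a, Hist1h3f and Hist2h4. Any window of a histone name on a single excluded chromosome was left out, while the windows of all promoters were not filtered in this way. CCAAT was in 85.2% of the 54 replication-dependent windows and in 63.6% of the 11 variant windows, against 37.4% of all 32851 windows. It was in every H1, H2A, H2B and H3 window (6, 17, 13 and 7 windows) but in 27.3% of the 11 H4 windows. The octamer, which Pou2f1 binds, was in 53.8% of H2B, 41.2% of H2A and 9.09% of variant windows, against 1.74% of all windows. The H1 box was in 83.3% of H1 windows and in 7.18% of all windows. TATAAA was in 57.4% of replication-dependent, 9.09% of variant and 13.6% of all windows. CpG sites, the positions that DNA methyltransferases act on, had a median of 10 in a replication-dependent window and 27 in a variant window, against 7 over all windows. A match describes letters and not binding, and a window without one lacks only those letters.

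Hist1h1c encodes the linker histone H1.2, one of several somatic H1 proteins made in S phase. Its probe 50079 read 11.61, 11.52 and 11.51 log2 units on the DAC arrays, against 12.01, 12.11 and 12.01 on the untreated arrays. The probe 7650273 read 11.61, 11.76 and 11.62 on the DAC arrays and 12.21, 12.16 and 12.09 on the untreated arrays. On both probes every DAC array was below every untreated array, with no overlap; among all kept probes 19.2% had this order. The log2 fold changes were -0.49 ± 0.11 (SE) for each probe, with adjusted p = 0.0213 and 0.0245 in limma. They were -0.51 and -0.46 without untreated replicate 1, with adjusted p = 0.0135 and 0.0209. The calls of both probes were lost when DAC 2, DAC 3, untreated 2 or untreated 3 was omitted, and that of 7650273 also when DAC 1 was omitted, at adjusted p of 0.0629 to 0.112; 7650273 also lost it with median scaling (adjusted p = 0.0665). Hist1h1c was the only H1 gene of the replication-dependent class with a kept probe, so its direction stands for 1 gene.

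H2A is the core histone that pairs with H2B. Of its 22 kept replication-dependent probes, 1 was called higher and 1 lower, beside 8.34% and 6.62% of all kept probes. Of the 22, 19 had a log2 fold change above 0, beside 9468 of all 21415 kept probes. The median of the 22 was 0.22 (0.09 with median scaling). Without untreated replicate 1, 9 (40.9%) were called higher and 1 lower, beside 14.3% and 15.5% of all kept probes, and the median was 0.35. Hist1h2ac read 6.00, 6.51 and 6.45 log2 units on the DAC arrays, against 5.68, 5.53 and 5.46 on the untreated arrays. All 3 DAC arrays lay above the 3 untreated ones, as for 15.7% of all kept probes. Its log2 fold change was 0.76 ± 0.16 (SE), with adjusted p = 0.0174, and 0.82 without untreated replicate 1. The size was 0.50 with no background correction and 0.49 with an offset of 50. The call was lost when DAC 2, DAC 3, untreated 2 or untreated 3 was omitted (adjusted p of 0.0682 to 0.0825, log2 fold changes of 0.67 or more). Hist2h2aa1, a Hist2 cluster gene with a near-identical neighbour Hist2h2aa2, was called lower on 1 of its 3 probes. That probe, 1170546, read 5.72, 5.48 and 5.80 on the DAC arrays and 6.27, 6.12 and 6.16 on the untreated arrays, without overlap. The log2 fold change was -0.52 ± 0.13 (adjusted p = 0.0321), while the other 2 probes of the gene were at 0.24 and 0.14 and the probe of Hist2h2aa2 at -0.19, none of them called. The call on 1170546 held without untreated replicate 1 and was lost without each of the other 5 arrays, at adjusted p of 0.058 to 0.12, and its size was -0.33 with no background correction or an offset of 50.

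The H2A genes with bright probes were not called with 6 arrays, and untreated replicate 1 sat high in them. Hist2h2ac probe 240450 read 13.04, 13.03 and 13.20 on the DAC arrays and 13.15, 12.67 and 12.61 on the untreated arrays. Hist1h2ad probe 7160253 read 12.94, 12.91 and 13.13 on the DAC arrays and 13.04, 12.54 and 12.55 on the untreated arrays. In both, untreated replicates 2 and 3 lay below every DAC array while untreated replicate 1 lay among them. The same order of untreated replicates 2 and 3 against the DAC arrays held for all 12 H2A probes with a mean log2 signal above 11, and for 27.2% of all kept probes. In these 12 probes untreated replicate 1 was above untreated replicates 2 and 3, by a median of 0.38. Their adjusted p was at least 0.147 with 6 arrays, and the log2 fold changes were 0.28 ± 0.16 for both Hist2h2ac 240450 and Hist1h2ad 7160253. Without untreated replicate 1 these were 0.45 each, with adjusted p = 0.0238 and 0.0266. Hist1h2ai probe 5490193 (0.34 with 6 arrays, 0.46 without), Hist1h2an (0.39 and 0.55) and Hist1h2af probe 4250711 (0.30 and 0.43) were likewise called higher only without that array. Called in neither fit were Hist1h2ao (0.20 and 0.32), Hist1h2ak (0.18 and 0.29) and further probes of these genes. These were the brighter Hist1h2ai probe 1110390 (0.22 and 0.31), Hist1h2ad probe 3520717 (0.20 and 0.27) and Hist1h2af probe 5820653 (0.03 and 0.18). The bright probe of Hist1h2af, 5820653, was at 0.03 ± 0.15, with a 95% interval of -0.32 to 0.37.

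H2B probes lay mostly on the other side of 0. Of 16 kept probes, 13 had a log2 fold change below 0, with a median of -0.10 (-0.25 with median scaling). Of the 16, 1 was called higher and 0 lower, beside 8.34% and 6.62% of all kept probes. Leaving out untreated replicate 1 gave a median of -0.04, with 5 of 16 probes above 0 and the same counts of calls, and without untreated replicate 3 it was -0.17. All kept probes also had a median below 0, at -0.05 with 6 arrays, -0.14 with median scaling and -0.04 without untreated replicate 1. With 6 arrays 9468 of the 21415 kept probes were above 0. No H2B probe other than the called one had, with 6 arrays, an unadjusted p under 0.05 in limma. Hist1h2bc probe 6400017, a bright probe, read 11.73, 11.84 and 11.97 on the DAC arrays and 12.19, 11.93 and 11.85 on the untreated arrays. The groups overlapped, and its log2 fold change was -0.14 ± 0.14, with a 95% interval of -0.46 to 0.17. Hist1h2be was called on probe 6380128, which read 7.02, 6.98 and 7.25 on the DAC arrays and 6.69, 6.26 and 6.18 on the untreated arrays. This is a log2 fold change of 0.70 ± 0.16 (adjusted p = 0.0262), and of 0.86 without untreated replicate 1. The 2 other probes of Hist1h2be were at -0.17 and -0.13 and were not called, so the 3 probes of this gene disagree in sign. The call on 6380128 was lost without each array other than untreated replicate 1, at adjusted p of 0.0545 to 0.104, with median scaling (0.0729) and with no filter on dim probes (0.0541).

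H3 is the core histone that pairs with H4. All 13 kept probes had a log2 fold change above 0 (11 of 13 with median scaling), beside 9468 of all 21415 kept probes with 6 arrays. The median of the 13 was 0.36. In 9 of them the 3 DAC arrays lay above the 3 untreated arrays, beside 15.7% of all kept probes. With all 6 arrays 2 (15.4%) were called higher and 0 lower, beside 8.34% and 6.62% of all kept probes. Without untreated replicate 1, 6 (46.2%) were called higher and 0 lower, beside 14.3% and 15.5% of all kept probes, with 12 of 13 above 0 and a median of 0.36. Hist1h3a read 8.07, 8.12 and 8.17 on the DAC arrays and 7.62, 7.66 and 7.54 on the untreated arrays. Its log2 fold change was 0.51 ± 0.11 (adjusted p = 0.0185), and 0.52 without untreated replicate 1. Hist1h3f probe 2600048 read 8.77, 8.68 and 8.76 on the DAC arrays and 8.38, 8.20 and 8.35 on the untreated arrays, with a log2 fold change of 0.43 ± 0.11 (adjusted p = 0.0408). In both genes the groups did not overlap, and untreated replicate 1 lay beside the other untreated arrays. A further kept probe of Hist1h3f was at 0.08 and was not called, and 2 more probes of this gene were detected on none of the arrays. Hist2h3b, read by a bright probe, was at 0.17 ± 0.11 and was not called. The call of Hist1h3a was lost when DAC 2, DAC 3, untreated 2 or untreated 3 was omitted (adjusted p of 0.0728 to 0.0893), that of Hist1h3f also when DAC 1 was omitted (0.0925 to 0.183), and both with median scaling (0.159 and 0.335), where Hist1h3f was at 0.28.

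H4 showed 14 of 15 kept probes above 0, beside 9468 of all 21415 kept probes, with a median of 0.32 (0.17 with median scaling). Of the 15, 1 (6.67%) was called higher and 0 lower, beside 8.34% and 6.62% of all kept probes. The median was 0.44 without untreated replicate 1, 0.21 without untreated replicate 2 and 0.17, with 11 of 15 above 0, without untreated replicate 3. Hist2h4 read 5.14, 5.21 and 5.35 on the DAC arrays and 4.59, 4.88 and 4.71 on the untreated arrays, with no overlap. It is a dim probe, detected on 3 of 3 DAC arrays and on 1 of 3 untreated arrays. The probe differed by a log2 fold change of 0.51 ± 0.13 (adjusted p = 0.0331). The call was lost without background correction (log2 fold change 0.28, adjusted p = 0.078), with an offset of 50 (0.24, adjusted p = 0.0891), with median scaling (0.49, adjusted p = 0.0708), and without each array other than untreated replicate 1 (adjusted p of 0.0542 to 0.118). In H4 untreated replicate 1 was above untreated replicates 2 and 3 in 14 of 15 probes, and 8 probes were called higher without it, 53.3% of the family against 14.3% of all kept probes.

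**Figure D2:**
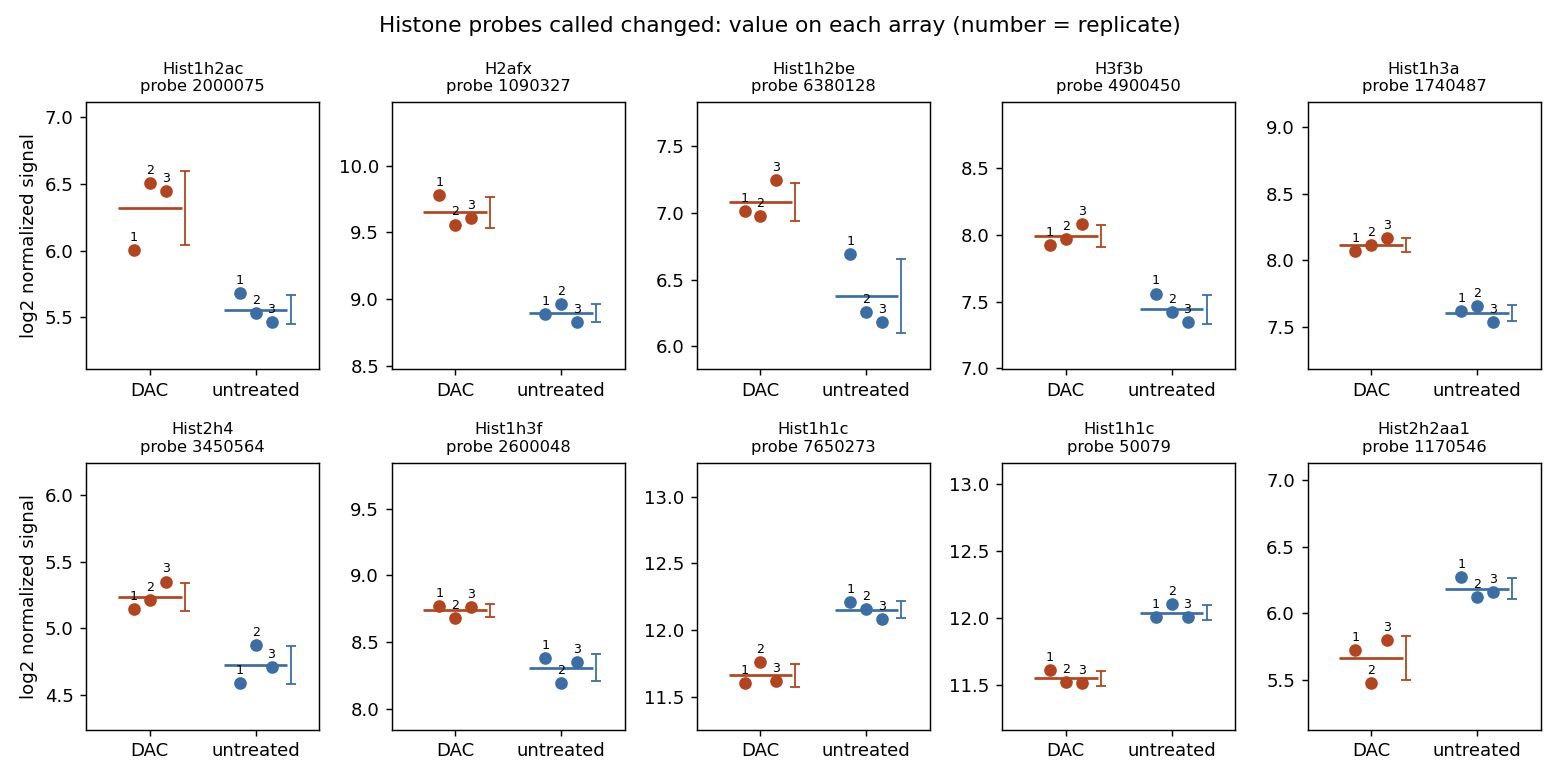
Log2 normalized signal (vertical axis) of the 10 called histone probes on each array, with the 3 DAC arrays left of the 3 untreated arrays; numbers are replicate numbers, horizontal lines group means and bars standard deviations. In every panel the DAC and untreated arrays are separate; the upper panels and Hist2h4 and Hist1h3f are higher with DAC, and both Hist1h1c probes and Hist2h2aa1 are lower.

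Untreated replicate 1 divided the families. Its log2 value minus the mean of untreated replicates 2 and 3 had a median of 0.39 in H2A, 0.31 in H2B, 0.11 in H3 and 0.44 in H4, against 0.02 in the Hist1h1c probes and 0.04 over both the variant probes and all kept probes. It lay above both other untreated arrays in 22 of 22 H2A probes, 13 of 16 H2B probes, 7 of 13 H3 probes and 7 of 15 variant probes. Over the 68 replication-dependent probes it was the highest of all 6 arrays in 24. Before normalization the ratio of its intensity to the mean of the other untreated arrays had a median of 1.71 over replication-dependent probes, 1.32 over variant probes and 1.23 over all kept probes. In the S phase genes named below it lay the other way, at a median of -0.23. What set this plate apart was not tested.

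**Figure D3:**
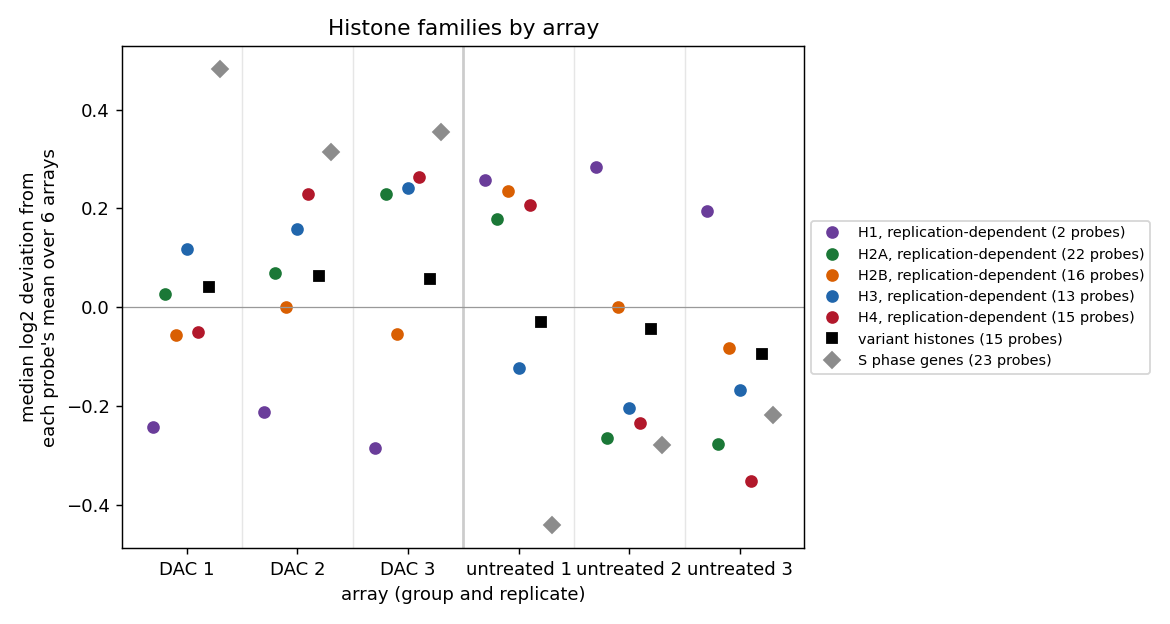
Median over each family's probes of the log2 deviation from the probe's mean over 6 arrays (vertical axis), for the 3 DAC and the 3 untreated arrays (horizontal axis). H2A, H2B and H4 of untreated replicate 1 lie near 0.2, well above untreated replicates 2 and 3, while its variant histones and H1 lie beside those of the other untreated arrays.

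Paired H2A and H2B genes share a promoter region, although their probes may also bind mRNAs of other genes of the family. Among the promoter windows, 6 pairs of an H2A and an H2B gene on opposite strands had start sites within 500 bases, and in 5 of them both genes had kept probes. The start sites of Hist1h2ah and Hist1h2bk lie 178 bases apart, so the Hist1h2bk run above holds the start of Hist1h2ah and ends at that of Hist1h2bk. Hist1h2ah was at 0.22 and 0.24 on its 2 probes, and Hist1h2bk at -0.10 and -0.03. Hist1h2ag was at 0.33 with its partner Hist1h2bj at -0.08 (249 bases), and Hist1h2ak at 0.18 with Hist1h2bn at -0.14 (164 bases). Hist1h2ad was at 0.20 and 0.28 with Hist1h2bf at -0.13 (174 bases), and Hist1h2ae at 0.12 ± 0.22 (SE) with Hist1h2bg at -0.00 ± 0.13 (180 bases). In all 5 pairs the H2A log2 fold changes were above those of the H2B partner, also with median scaling and with cyclic loess, and in 4 of 5 pairs when DAC 3 or untreated 3 was omitted. None of these probes was called with 6 arrays, and the difference within a pair was not tested. Without untreated replicate 1, the H2A partners were at 0.27 to 0.54 and the H2B partners at -0.05 to 0.07. Probes of different H2A genes may bind the same mRNAs, so the 5 pairs are not independent. The pairs also draw on the same probes as the family medians above, so they add no separate support for a difference at a promoter.

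**Figure D4:**
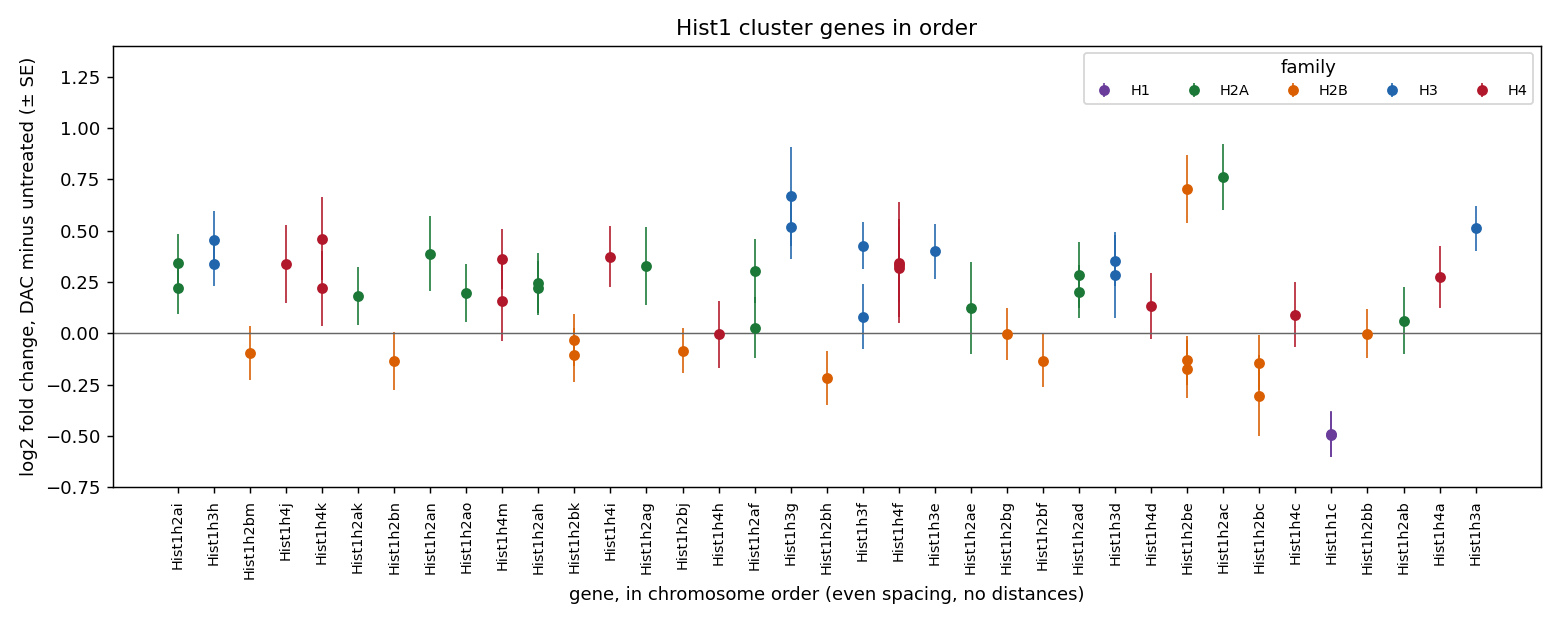
Log2 fold change, DAC minus untreated, with standard error (vertical axis) for each kept probe of the Hist1 cluster, with genes evenly spaced in their order along the chromosome (horizontal axis) and coloured by family. Most neighbouring H2A (green) and H2B (orange) genes lie on opposite sides of 0; Hist1h2be on 1 probe and Hist1h2ac stand highest and Hist1h1c lowest.

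Calls were also counted by cluster, without a test between clusters. The Hist1 cluster on chromosome 13 had 54 kept probes, 4 (7.41%) called higher and 2 (3.7%) lower, with a median of 0.22. Without untreated replicate 1 its counts were 21 (38.9%) and 2 (3.7%). The Hist2 genes had 13 kept probes, 1 (7.69%) called higher and 1 (7.69%) lower, with a median of 0.24. Without untreated replicate 1 their counts were 3 (23.1%) and 1 (7.69%). Among all kept probes 8.34% were higher and 6.62% lower, and 14.3% and 15.5% without untreated replicate 1. The Hist4 gene Hist4h4 had 1 kept probe, at 0.07, not called. None of the Hist3 probes Hist3h2a, Hist3h2ba and Hist3h2bb was detected on any array.

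Of the 10 called probes, that of H2afx alone kept its call with any 1 array left out. It read 9.78, 9.56 and 9.61 log2 units on the DAC arrays, against 8.89, 8.97 and 8.83 on the untreated arrays. Every DAC array was above every untreated array. Its log2 fold change was 0.76 ± 0.12 (SE), with a 95% interval of 0.48 to 1.03 and adjusted p = 0.00526. With 1 array left out it lay between 0.69 and 0.80, with adjusted p of 0.00427 to 0.0313. The call rests on 1 probe.

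Among the other variants, 1 further probe was called. H3f3a and H3f3b encode the same H3.3 protein, the H3 that is placed outside replication. H3f3b probe 4900450 read 7.93, 7.97 and 8.08 on the DAC arrays and 7.56, 7.42 and 7.35 on the untreated arrays, with a log2 fold change of 0.55 ± 0.12 (adjusted p = 0.019). Its brighter probe 1980561 read 12.46, 12.68 and 12.57 on the DAC arrays and 12.49, 12.18 and 12.32 on the untreated arrays, overlapped, and was not called (0.24 ± 0.13, adjusted p = 0.257). H3f3a gave opposite signs. Its bright probe 3360669 read 12.08, 11.81 and 11.89 on the DAC arrays and 11.95, 12.39 and 12.66 on the untreated arrays (-0.41 ± 0.19, adjusted p = 0.19). Its dim probe 6380711 was at 0.22 ± 0.15 (adjusted p = 0.37). Without untreated replicate 1 both H3f3a probes were called, the first lower (-0.60) and the second higher (0.36). The H3f3b call on 4900450 was lost when DAC 2, DAC 3, untreated 2 or untreated 3 was omitted (adjusted p of 0.0732 to 0.0891) and with median scaling (adjusted p = 0.139).

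H2afz encodes H2A.Z, the variant at many promoters. It read 12.42, 12.33 and 12.17 on the DAC arrays and 12.40, 12.20 and 12.22 on the untreated arrays. The groups overlapped, and the log2 fold change was 0.03 ± 0.12, with a 95% interval of -0.25 to 0.32. H2afy encodes macroH2A1, a variant of repressed chromatin, and read 11.49, 11.33 and 11.09 on the DAC arrays and 11.10, 11.83 and 11.80 on the untreated arrays. Its log2 fold change was -0.27 ± 0.22 (adjusted p = 0.441) and, without untreated replicate 1, -0.51 (adjusted p = 0.0307). H2afv, which encodes another H2A.Z protein, was at 0.07 ± 0.11 on one probe and -0.30 ± 0.13 on probe 4480102, which was called lower without untreated replicate 1 (-0.39, adjusted p = 0.0428). H1f0, a linker histone typical of differentiated cells, was at 0.03 ± 0.26 with a 95% interval of -0.57 to 0.63, too wide to place it. The 2 probes of H1fx were at 0.09 and 0.19 and the 2 kept probes of H2afj at 0.06 and 0.22, none called. The oocyte gene H1foo and the testis gene H1fnt were detected on no array.

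Probes of one gene often differed. Of the 24 histone genes with 2 or more kept probes, 1 gene (Hist1h1c) had all of its probes called, 4 had some called and 19 had none. In 19 genes the probes shared a sign and in 5 they did not. The gap between the highest and lowest log2 fold change of a gene had a median of 0.16 and reached 0.88 in Hist1h2be. The 5 genes with opposite signs were H3f3a, H2afv, Hist1h2be, Hist2h2aa1 and Hist2h2ac. Which probe reads its named gene was not tested, since the probe sequences were not used here.

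**Figure D5:**
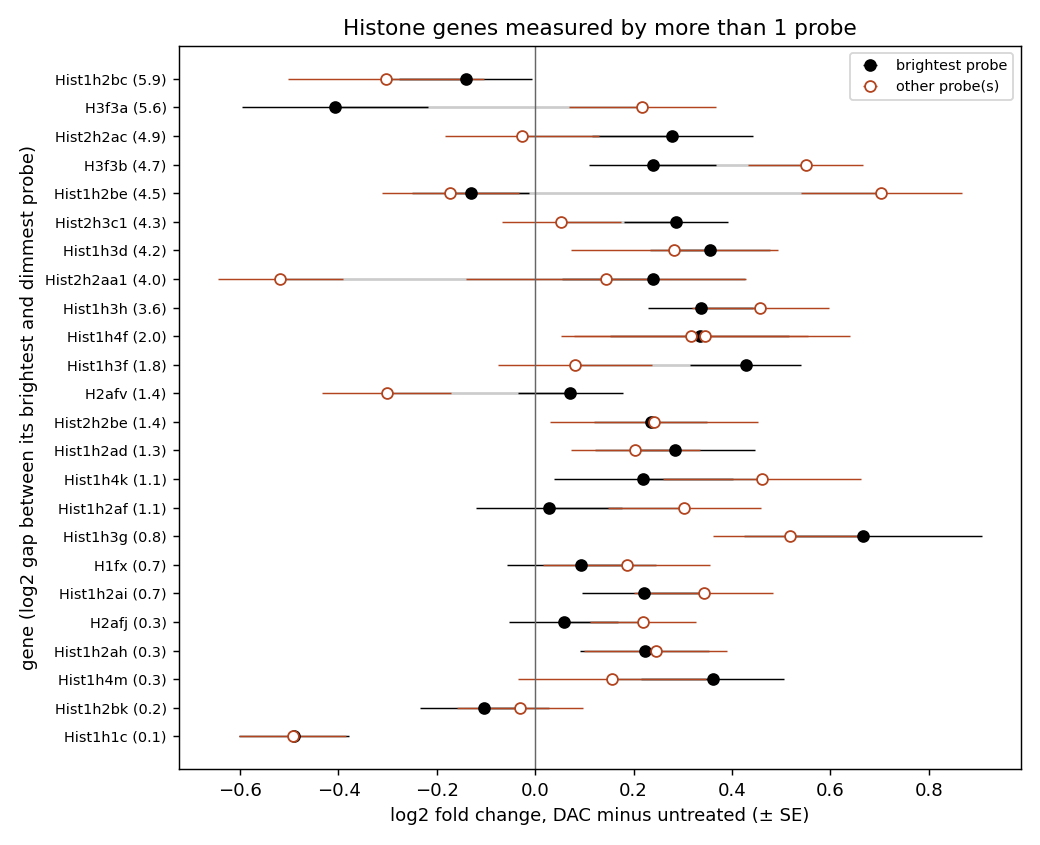
Log2 fold change, DAC minus untreated, with standard error (horizontal axis) of each kept probe of the 24 histone genes with more than 1 kept probe (vertical axis, with the log2 gap in signal between a gene's brightest and dimmest probe). Filled points are the brightest probes; the probes of Hist1h1c coincide, and those of Hist1h2be, Hist2h2aa1 and H3f3a lie on both sides of 0.

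Genes that make, carry or place histones were counted from 3 lists. The first list holds factors that transcribe histone genes or cut their mRNAs, among them Npat and the stem-loop binding protein Slbp. Of its 15 genes 13 had kept probes, and of 23 kept probes 0 were called higher and 0 lower, also without untreated replicate 1, with 0 in each direction at an unadjusted p under 0.05 in limma. Slbp and Casp8ap2 were not detected. The second list holds chaperones and deposition factors. Of its 29 genes 28 had kept probes, and of 47 kept probes 13 (27.7%) were called higher and 1 lower, beside 8.34% and 6.62% of all kept probes. The probes called higher belong to 11 genes. With median scaling 6 of the 47 were called higher and 2 lower, beside 1143 and 1396 of all 21415 kept probes. Without untreated replicate 1 the counts were 16 (34%) and 4 (8.51%), beside 14.3% and 15.5% of all kept probes.

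Daxx, which places H3.3 with Atrx, read 10.42, 10.05 and 10.31 on the DAC arrays and 8.81, 9.07 and 9.05 on the untreated arrays. It rose by a log2 fold change of 1.28 ± 0.14 (adjusted p = 0.00109). Chaf1b, a subunit of the CAF-1 chaperone that places H3 and H4 behind the replication fork, rose by 1.10 ± 0.15 (adjusted p = 0.0026). Asf1b, which hands H3 and H4 to CAF-1, rose by 1.01 ± 0.14 (adjusted p = 0.00354), and Hat1, which acetylates new H4, by 0.79 ± 0.11 (adjusted p = 0.0033, and 0.0576 with median scaling). Oip5, which helps to place the centromeric H3 variant Cenpa, rose by 0.86 ± 0.11 (adjusted p = 0.00257). Cenpa itself read 12.05, 12.28 and 12.24 on the DAC arrays and 11.58, 11.22 and 11.30 on the untreated arrays, a log2 fold change of 0.82 ± 0.14 (adjusted p = 0.00746). Every DAC array was above every untreated array for Daxx and Cenpa. Cenpa was named after its values were seen, as the only histone on these lists. The 1 probe called lower was one of Rbbp4, a histone-binding subunit of CAF-1 and other complexes (-0.47 ± 0.13, adjusted p = 0.0486), a call lost without each array other than untreated replicate 1.

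The third list holds 12 genes of S phase, 11 of them with kept probes. Of 23 kept probes 11 (47.8%) were called higher and 0 lower, beside 8.34% and 6.62% of all kept probes. The median log2 fold change of the 23 was 0.65, and 0 were lower at an unadjusted p under 0.05 in limma. With DAC 2, DAC 3 or untreated 2 omitted, 7 were called higher, beside 994 to 1092 of all 21415 kept probes in those fits. Mcm5, a subunit of the replicative helicase, rose by 1.68 ± 0.12 (adjusted p = 9.29e-05), and Rrm2, of ribonucleotide reductase, by 1.24 ± 0.13 (adjusted p = 0.00093). Tyms, thymidylate synthase, rose on probe 4810239 by 0.96 ± 0.12 (adjusted p = 0.00205). Its probe 2100026 was also called higher (0.87), while its kept probes 1400484, 3130435 and 510544 were not called (0.47, 0.25 and 0.44). The replication-dependent histone probes, at a median of 0.22, are read beside these values, and the difference between the lists was not tested.

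The cell type of the labels was checked by marker lists. Of 6 epithelial markers 5 were detected on all arrays and Epcam on none, and their summed level was 29980 to 33880 on the DAC arrays and 25920 to 31410 on the untreated arrays. Of 8 stromal markers 3 had kept probes (Acta2, Col1a1 and Pdgfra), and Col1a2, Col3a1, Dcn, Lum and Pdgfrb were not detected. The summed stromal level was 1360 to 1809 on the DAC arrays and 435.7 to 472 on the untreated arrays. Of the 6 stromal probes 5 (83.3%) were called higher, beside 8.34% of all kept probes. These 5 belong to 2 genes, most of them to Acta2 and the rest to Col1a1. Of 6 leukocyte markers 1 (Cd68) was detected, summed at 319.9 to 370.1 on the DAC arrays and 314.3 to 346.8 on the untreated arrays, and of 4 endothelial markers none. The part of these levels in the histone results was not tested.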

How the data were processed

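RNA of 6 plates of explant cells, 3 with DAC and 3 untreated, was measured on Illumina arrays. Trizol served for the total RNA and biotin for the cRNA label, per the labels' protocols. Per the file headers, the deposited table gives for each probe and array a mean bead intensity with its standard error, a bead number and a detection p-value. The authors left these intensity values linear and unscaled, as the values show; scanner software, earlier steps and genome build are not given in the sources used here. A probe had a median of 44 or 45 beads, and precision is limited by the number of arrays.

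The normexp method of limma 3.58.1 (R 4.3.3) removed background, with negative controls inferred from the detection p-values and an offset of 16, which assumes that those p-values refer to such controls. Quantile normalization and log2 followed, and the offset shrinks fold changes of dim probes. Probes with a detection p-value under 0.05 on at least 3 of 6 arrays were fitted with lmFit and eBayes with no covariate, and p-values were adjusted by Benjamini-Hochberg over all 21415. The test was run on simulated data whose noise was independent between probes, with no divergent plate. That run does not cover a plate like untreated replicate 1. A call is an adjusted p under 0.05. Lists are described by counts and medians, with no list test. Groups came from the agent label.

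Probes were named when called, when among the 12 brightest of their class detected on all arrays and not called, and, for the lists, by the 6 lowest adjusted p with and without the S phase list; the S phase, chaperone and pair genes beyond these were named for their role or position. A gene that the rule gave is counted in its list and not reported here by name. The members, lists and rules were chosen with earlier results of these data known. The name Zfp100 was taken out of the mRNA list after its values were seen, since RefSeq gives it to Zbtb17, another gene. Alternatives covered the background, offset, scaling, filter, probe per gene, replicate block, each array left out, and untreated replicates 2 and 3 averaged. Untreated replicates 2 and 3 differed by more than bead noise and were counted as 2. The authors' second table was not used, since its identifiers are not paired with these names. Sequences are RefSeq's.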

Additional observations from a re-analysis of the deposited data

How the results depend on the processing

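The direction of the 43 probes that the naming rule gave, over 672 comparisons with an alternative, was reversed in 0 where either value was called; 72 calls were lost and 9 gained. Over all kept probes, 1785 were called higher and 1417 lower, 55.7% of calls being higher. With median scaling, 1143 were higher and 1396 lower (45% higher), and the numbers of histone probes called higher were 1 replication-dependent and 1 variant. Median scaling put the variant median at -0.0332 and cyclic loess at 0.113. Cyclic loess gave 1996 higher and 1063 lower (65.3% higher). With 1 probe per gene name, 1 replication-dependent probe was lower and 1 variant probe higher. With untreated replicates 2 and 3 averaged, 1032 were higher and 432 lower (70.5% higher), with 0 replication-dependent probes higher, 0 lower and 1 variant probe, H2afx, higher. With 1 array left out, the counts ran over 994 to 3053 higher and 369 to 3310 lower for all kept probes, 0 to 24 higher and 0 to 3 lower for replication-dependent probes, and 1 to 3 higher and 0 to 3 lower for variant probes. The highest counts came without untreated replicate 1. For chaperones, 13 higher and 1 lower became 6 and 2 with median scaling, 0 lower with cyclic loess, 1 probe per gene name or averaging, and 0 to 4 lower with 1 array left out. For S phase genes, 11 higher became 7 with 1 probe per gene name or averaging and 7 to 12 with 1 array left out. Whether the replicate numbers pair the plates was not settled. Same-numbered plates had correlations of deviations of -0.612, -0.0771 and -0.495, and differently numbered plates -0.483 to 0.564. With 3 arrays per group and 1 divergent plate, these values cannot show which plates belong together. With the replicate block, 707 probes were higher and 138 lower, with 0 replication-dependent probes higher, 0 lower, 0 variant probes higher, 4 chaperone probes higher and 0 lower, and 5 S phase probes higher; H2afx was at adjusted p = 0.0613. The number of arrays and 1 divergent untreated plate limit these results, and the cause of the changes was not tested.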
